A study of Hipposideros armiger and Mus musculus with 20 samples.

Results

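The genes described here encode the metalloproteases that cut the extracellular matrix and cell surface proteins, together with their tissue inhibitors. They were taken by symbol, as every gene whose name starts with Mmp, Adam or Timp followed by a digit, or with Adamts, and 59 of the 14871 genes in the expression table matched. A gene was kept in a species where at least 2 libraries of that species had at least 1 FPKM (sequenced fragments per kilobase of transcript, relative to library size). This left 35 genes in mouse and 37 in bat, 28 of them in both species and 44 in either, while 15 passed in neither. Just inside this limit, the second highest library of Adam6b held 1.55 FPKM in mouse and that of Adamts16 held 1.53 FPKM in bat. Just outside it, Adamts7 had 0.989 FPKM in mouse and Mmp9 had 0.98 FPKM in bat. By family, 10 of 15 MMP genes passed in mouse and 9 in bat, 10 and 9 of 18 ADAM genes, 8 and 12 of 18 ADAMTS genes, 3 of 4 ADAMTS-like genes in each species and all 4 TIMP genes in each.

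Fat was sequenced as mRNA from ICR mice, an outbred laboratory stock, and from the great roundleaf bat, Hipposideros armiger. Animals of both species had spent 1 week at 10 °C, called cold below, or at 30 °C, called warm. The depots sampled were the brown fat between the shoulder blades (iBAT) and the white fat under the skin (sWAT) in both species, and in bats also the white fat of the abdomen (aWAT). Each of the 10 groups, 4 of mouse and 6 of bat, held 1 female and 1 male library, 20 in all. The labels name no genetic change or drug, and they do not say whether libraries of different depots came from the same animals or whether a library is 1 animal, so p-values measure the spread between these libraries. Values of each pair are printed with the female library first and the male library second.

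Matrix metalloproteinases (MMPs) degrade collagens, gelatin and other matrix proteins. ADAMs are membrane-anchored and release growth factors, cytokines and receptors from the cell surface, and ADAMTS enzymes are secreted and cut proteoglycans, procollagens and von Willebrand factor. TIMPs bind the active site of these enzymes and block it. In fat the matrix is laid down mainly by fibroblasts and progenitor cells around the fat cells, and it is remodelled when a depot grows, shrinks or takes on new vessels and new fat cells.

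The active enzymes share 1 chemical core, a zinc ion held by 3 histidines beside a catalytic glutamate, known as the metzincin zinc-binding motif. It spans 11 residues, or 33 coding bases. Among members, 33 of 44 encoded it in the mouse GRCm38 transcripts of GENCODE M21, against 0.386% of the 13726 genes of the table with a coding sequence there. That share is 53 genes and includes the 33 members. The members were taken by the names of protease families, so the contrast follows from the choice and is no result. All 12 MMPs, all 13 ADAMTS enzymes and 8 of 12 ADAMs carried the motif. The 4 TIMPs, the 3 ADAMTS-like proteins and Adam6b, Adam11, Adam22 and Adam23 did not. The stretches of 8 members on which the comparisons below turn are given from 5′ to 3′ on the coding strand, with the codons of the 3 histidines and the glutamate in capitals. They show how closely the catalytic core is shared by genes whose levels differed.
Mmp2: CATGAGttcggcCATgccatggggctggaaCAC
Mmp14: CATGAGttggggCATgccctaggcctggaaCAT
Mmp19: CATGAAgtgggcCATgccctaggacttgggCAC
Mmp28: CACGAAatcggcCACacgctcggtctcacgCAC
Adam12: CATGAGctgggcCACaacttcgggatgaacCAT
Adam17: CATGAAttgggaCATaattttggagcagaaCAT
Adamts5: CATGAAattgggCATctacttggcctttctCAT
Adamts13: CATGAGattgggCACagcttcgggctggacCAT
In Mmp2 the stretch starts at residue 403, in Mmp14 at 239, in Mmp19 at 213, in Mmp28 at 240, in Adam12 at 348, in Adam17 at 424, in Adamts5 at 410 and in Adamts13 at 226. In GRCm38 these genes lie at chr8:92827291-92853420 (Mmp2, plus strand), chr14:54431612-54445364 (Mmp14, plus), chr10:128790910-128800824 (Mmp19, plus), chr11:83440768-83463071 (Mmp28, minus), chr7:133883199-134232146 (Adam12, minus), chr12:21323509-21373632 (Adam17, minus), chr16:85856173-85901828 (Adamts5, minus) and chr2:26973416-27009628 (Adamts13, plus). These are mouse sequences. The bat values are listed under mouse gene identifiers, and how bat reads were assigned to them is not given in the sources used here, so levels were not compared between species.

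The deposited values were divided by 1 scale factor per library, the median ratio to the mean library of the species, and are called scaled FPKM. The factors were 0.67 to 1.52 for mouse libraries and 0.862 to 1.13 for bat libraries, so that a deposited value is the scaled value times its factor. A change is the difference of log2(scaled FPKM + 1), printed ± its standard error, which understates folds of genes at low levels. It was fitted with limma over all libraries of a species, and called at a Benjamini-Hochberg adjusted p under 0.05 over the 10689 genes tested in mouse or the 11025 in bat. Read totals are unknown, and depth read from low values was, relative to 1 library of the species, 0.952 to 1.11 among mouse libraries and 0.624 to 1.08 among bat libraries, lowest in bat iBAT.

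The fat label held in every library: Adipoq, the fat cell hormone adiponectin, had 550.1 to 1232 scaled FPKM in mouse and 166 to 1315 in bat. Ucp1, the uncoupling protein of brown fat, had 5182 and 7638 scaled FPKM in cold mouse iBAT, 201 and 56.8 in warm mouse iBAT, 1042 and 2998 in cold mouse sWAT and 0.779 and 1.07 in warm mouse sWAT. Markers of other tissues varied between libraries. Summed over 7 skeletal muscle markers, mouse iBAT held 1147 to 1669 scaled FPKM except 34.7 in the cold female, and mouse sWAT held 7.23 to 17.8 except 1413 in the cold male. Summed over 8 lymphocyte markers, mouse sWAT held 1067 and 32.1 in the cold and 8002 and 1707 in the warm. Sums of 3 epithelial and mammary gland markers in mouse sWAT were 40.2 and 0.108 in the cold and 64.4 and 1.07 in the warm, so high in the females alone. The part of such tissue in the values of members was not tested. Some genes that every cell uses were listed near 0 in the bat, with a median of 0 for the actin gene Actb and 0.518 for the translation factor Eef1a1, so a bat member listed near 0 was not read as absent.

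Some TIMPs and the gelatinase Mmp2 were the most abundant members in sWAT. Mmp2 cuts gelatin, the denatured form of collagen, and type IV collagen of basement membranes. In bat sWAT the 3 highest members, per length, were Mmp2, Timp3 and Timp2, with means over the 2 libraries of 471.1, 309.9 and 225 scaled FPKM in the cold and 339, 396 and 199 in the warm. In mouse sWAT Timp2 and Mmp2 led, with means of 138 and 98.6 scaled FPKM in the cold and 124 and 111 in the warm. In mouse iBAT the highest mean was that of Timp4, an inhibitor known from heart and fat, with 31.8 and 16.1 scaled FPKM in the cold and 27.5 and 61 in the warm. In cold mouse iBAT Adam15, Mmp19 and Adam9 had higher means than Timp2 and Mmp2, at 19.2, 17.7 and 15.3 scaled FPKM against 14.3 and 10.9. Timp4 shares exon bases with Syn2 on the other strand. Timp4 was the most scattered inhibitor in mouse, with 23.7 and 33.8 scaled FPKM in cold sWAT and 6.53 and 91.9 in warm sWAT, and no comparison called it in either species.

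How bat reads were assigned to genes is not given, so the members that passed the filter are listed for each species apart and are no comparison of levels. Adam6b, Adam11, Adam23, Adamts2, Mmp9, Mmp15 and Mmp25 passed in mouse alone, and Adam1b, Adam22, Adamts4, Adamts7, Adamts8, Adamts13, Adamts16, Mmp16 and Mmp20 in bat alone. Mmp20, the protease of tooth enamel, was listed at 0 in all 8 mouse libraries and at 1.88 to 3.7 scaled FPKM in all 12 bat libraries, values that cannot be compared between the species for the same reason. Mmp12, the macrophage elastase, passed in both species and was among the most uneven members, with 2.62 and 0.271 scaled FPKM in cold mouse sWAT, 4.02 and 1.11 in warm mouse sWAT and 0.155 to 0.292 in mouse iBAT. In bat sWAT Mmp12 had 5.53 and 0.752 scaled FPKM in the cold and 1.45 and 0.117 in the warm, and in each of these pairs the female library was the higher. It was not called in any comparison.

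**Figure D1:**
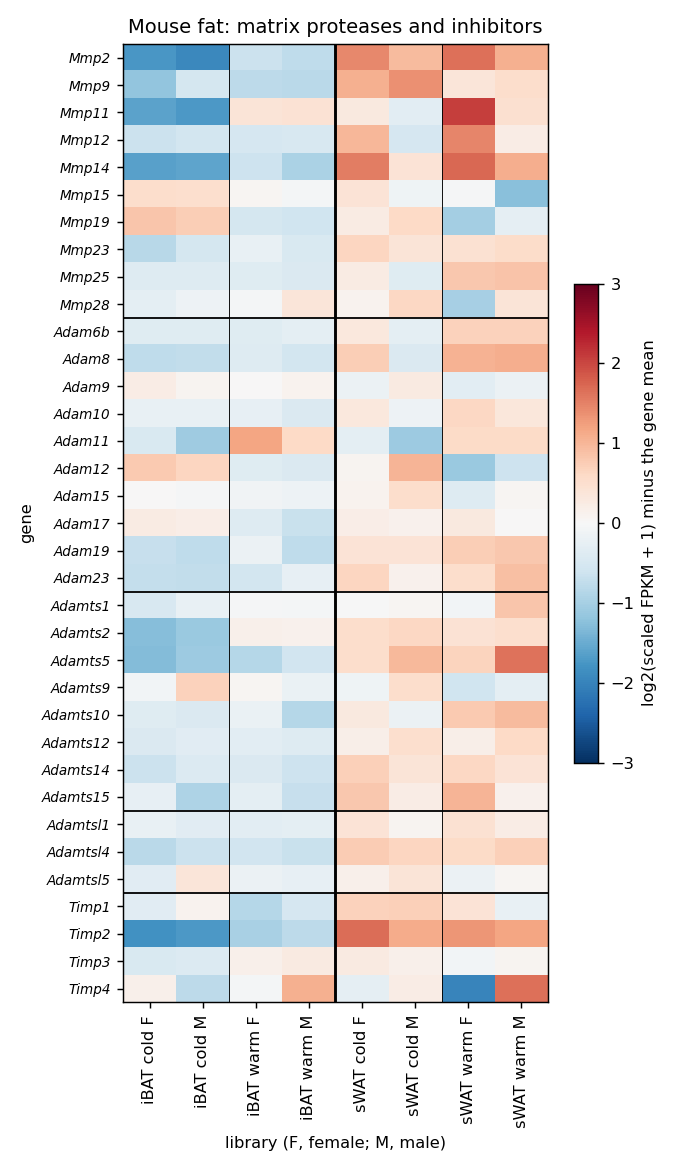
Values of the 35 mouse members in 8 libraries, each shown as log2(scaled FPKM + 1) minus the mean of the gene (colour, red above and blue below), with genes in rows by family and libraries in columns. Most rows were bluer in the 4 iBAT libraries than in the 4 sWAT libraries, and 21 of the 35 were called lower in iBAT.

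Mouse brown fat held less RNA of many of these genes than subcutaneous fat. Of 35 members, 21 were lower in iBAT than in sWAT and 0 higher, over both temperatures, where 25.4% of all genes tested were lower and 26.5% higher. The median change of the members was -0.79 on the log2 scale, against 0.01 over all genes. Of the 35, 8 reached 1 FPKM in sWAT libraries alone (Adam8, Adam6b, Adamts12, Adamts14, Adamtsl1, Adamtsl4, Mmp12 and Mmp25). The filter thus let them in through the depot where they were higher, and neither a call of theirs nor any count over all 35 supports a difference. Over genes that reached 1 FPKM in both depots, a restriction added after the data were seen, 14 of 27 members were lower and 0 higher, where 19.9% of 9366 genes were lower and 29.7% higher. With FPKM as deposited, 28 members were lower, but that scale moved all genes by a median of -0.52 and made 6099 genes lower and 998 higher, against 2716 and 2830 after scaling. Without any 1 of the 8 libraries, 17 of the 21 calls were kept.

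Among the gelatinases, Mmp2 was at 11.8 and 10.2 scaled FPKM in cold iBAT and 26.2 and 24.2 in warm iBAT, against 116 and 81.4 in cold sWAT and 133 and 89.2 in warm sWAT. Every iBAT library lay below every sWAT library, and the change was -2.56 ± 0.17 (adjusted p = 0.000381). Mmp9, the gelatinase stored by neutrophils, had 0.755 and 1.79 scaled FPKM in cold iBAT and 1.35 and 1.29 in warm iBAT, against 7.35 and 9.39 in cold sWAT and 4.14 and 4.76 in warm sWAT (-1.65 ± 0.17, adjusted p = 0.000843). Both gelatinases were thus lower in every iBAT library than in any sWAT library. The 7 neutrophil markers summed to 1.76 to 23.4 scaled FPKM in iBAT and to 4.64 to 256 in sWAT. In the male sWAT libraries they were at 4.64 in the cold and 18.7 in the warm, the libraries with 9.39 and 4.76 scaled FPKM of Mmp9, and their part in the depot difference was not tested.

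Mmp14, the membrane-bound protease that activates the Mmp2 proenzyme, had 4.37 and 4.6 scaled FPKM in cold iBAT and 9.9 and 7.64 in warm iBAT, against 47.4 and 21.3 in cold sWAT and 54.1 and 34.5 in warm sWAT (-2.39 ± 0.27, adjusted p = 0.00107). Timp2, which in complex with Mmp14 takes part in that activation and also inhibits Mmp2, had 13.9 and 14.8 scaled FPKM in cold iBAT and 25.6 and 29.1 in warm iBAT, against 165 and 112 in cold sWAT and 130.5 and 117 in warm sWAT. Its change of -2.65 ± 0.15 (adjusted p = 0.000246) was the largest among the members. The 3 genes of this activation step were therefore lower together in brown fat. Mmp2 divided by Timp2, a ratio that does not depend on the scaling between libraries, was 0.685 to 1.02 in iBAT and 0.701 to 1.02 in sWAT.

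Of the ADAMTS enzymes, Adamts5, an aggrecanase, had 1.21 and 1.57 scaled FPKM in cold iBAT and 2 and 2.65 in warm iBAT, against 6.87 and 9.63 in cold sWAT and 7.63 and 15.8 in warm sWAT (-1.90 ± 0.23, adjusted p = 0.00135). Adamts2 and Adamts14, which remove the amino-terminal propeptide of procollagen, were lower by -1.05 ± 0.09 and -1.06 ± 0.14 (adjusted p = 0.000573 and 0.00174). Adamts10, Adamts12 and Adamts15 were lower too, while Adamts9 and Adamts1, another proteoglycanase, did not pass. Adamts1 was at 3.03 to 4.55 scaled FPKM in iBAT and 4.3 to 9.1 in sWAT. Among the sheddases, Adam8, Adam10 and Adam19 were lower, and Adam9, Adam12, Adam15 and Adam17, the enzyme that releases TNF, did not pass. The calls of Adam8, Adamts12 and Adamts14 are no support, since these genes passed the filter through sWAT alone. Adam10, the sheddase of Notch receptors, had 9.35 and 9.24 scaled FPKM in cold iBAT and 9.07 and 7.92 in warm iBAT, against 14 and 9.83 in cold sWAT and 17.3 and 14.2 in warm sWAT (-0.56 ± 0.13, adjusted p = 0.0137). Of the inhibitors other than Timp2, Timp1 was lower (-0.80 ± 0.19, adjusted p = 0.0142), and Timp3 and Timp4 were not called.

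The fibroblast and progenitor markers moved the same way, with 8 of the 9 tested lower in iBAT. Their sums were 147 and 143 scaled FPKM in cold iBAT and 217 and 195 in warm iBAT, against 882 and 1074 in cold sWAT and 621 and 681 in warm sWAT, and none of the 9 was near 0. All 8 macrophage markers tested were lower in iBAT as well, with sums of 46 and 50.6 scaled FPKM in cold iBAT and 68.3 and 61.9 in warm iBAT, against 267 and 221 in cold sWAT and 343 and 236 in warm sWAT, and so were all 8 lymphocyte markers. The part of cell composition in the changes of members was not tested, and in bulk tissue fewer cells of a type cannot be told apart from less RNA per cell. Adam6b, which lies inside the immunoglobulin heavy chain locus, and Mmp25, a membrane-type MMP of leukocytes, were the members with at most 0.0536 and 0.0341 scaled FPKM in any iBAT library, where lymphocyte markers summed to 7.86 to 199.8, against 32.1 to 8002 in sWAT.

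**Figure D2:**
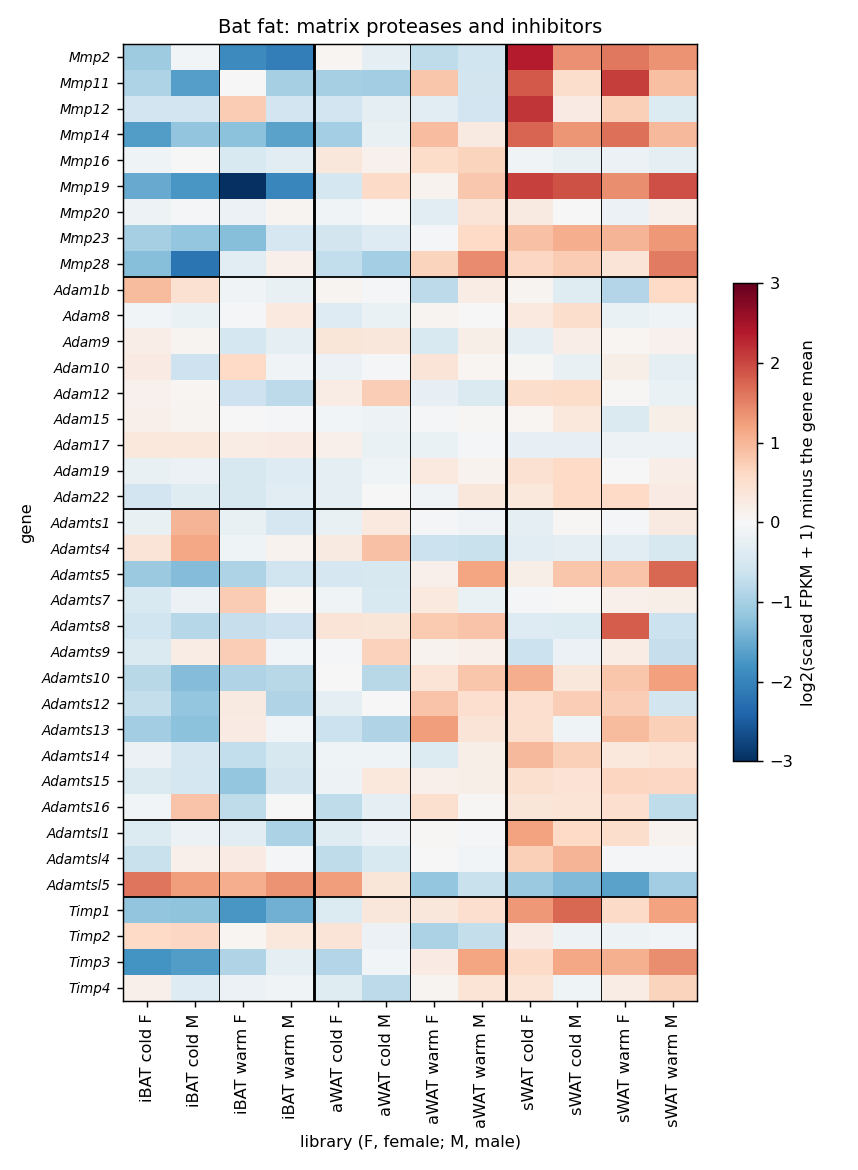
Values of the 37 bat members in 12 libraries, each shown as log2(scaled FPKM + 1) minus the mean of the gene (colour, red above and blue below), with genes in rows by family and libraries in columns. Mmp19, Mmp2 and Mmp14 were highest in sWAT, while Adamtsl5 was highest in iBAT and in the cold aWAT female.

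In the bat, 18 of 37 members were lower in iBAT than in sWAT and 3 higher, where 23.4% of all genes tested were lower and 22.9% higher. The median change of members was -0.63, against -0.02 over all genes. As deposited, 3338 genes were lower and 1899 higher, against 2584 and 2523 after scaling, and 20 members were lower and 3 higher. Without any 1 of the 8 iBAT and sWAT libraries 19 of the 21 calls were kept, all but those of Adam12 and Adamts12. Over genes that reached 1 FPKM in both depots, 14 of 30 members were lower and 2 higher, where 21.2% of 9919 genes were lower and 23.3% higher. Adam12, Adam22, Adamts14 and Adamtsl1 were called lower but did not reach 1 FPKM in both depots. Neither their calls nor any count over all 37 supports a difference. Mmp19, a secreted MMP that cuts basement membrane proteins, had the largest change, at 3.79 and 3.03 scaled FPKM in cold iBAT and 0.635 and 2.53 in warm iBAT, against 55.1 and 50.5 in cold sWAT and 34.9 and 51 in warm sWAT (-3.89 ± 0.31, adjusted p = 1.09e-05). The depots did not overlap for it. Mmp19 shares exon bases with Tmem198b on the other strand, and Tmem198b had only 0.474 to 2.87 scaled FPKM in these 8 libraries.

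Mmp2 had 57.1 and 114 scaled FPKM in cold bat iBAT and 31.7 and 28.2 in warm iBAT, against 628 and 314 in cold sWAT and 366 and 312 in warm sWAT (-2.95 ± 0.26, adjusted p = 1.86e-05). Mmp14 had 6 and 8.82 scaled FPKM in cold iBAT and 8.51 and 6.26 in warm iBAT, against 73.7 and 54.4 in cold sWAT and 69.1 and 42.7 in warm sWAT (-2.85 ± 0.25, adjusted p = 2e-05). For both genes every sWAT library lay above every iBAT library. Timp2 did not follow them, with 329 and 334 scaled FPKM in cold iBAT and 223 and 271 in warm iBAT, against 254 and 195 in cold sWAT and 193 and 206 in warm sWAT, a change of 0.44 ± 0.16 that was not called (adjusted p = 0.053).

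Mmp2 divided by Timp2 accordingly differed between bat depots. It was 0.174 and 0.342 in cold iBAT and 0.142 and 0.104 in warm iBAT, 0.442 and 0.527 in cold aWAT and 0.646 and 0.615 in warm aWAT, and 2.47 and 1.61 in cold sWAT and 1.9 and 1.52 in warm sWAT. The 3 bat depots did not overlap, and the mouse depots did. The pair of genes was chosen with these values known, so the ratios are a description with no test.

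**Figure D3:**
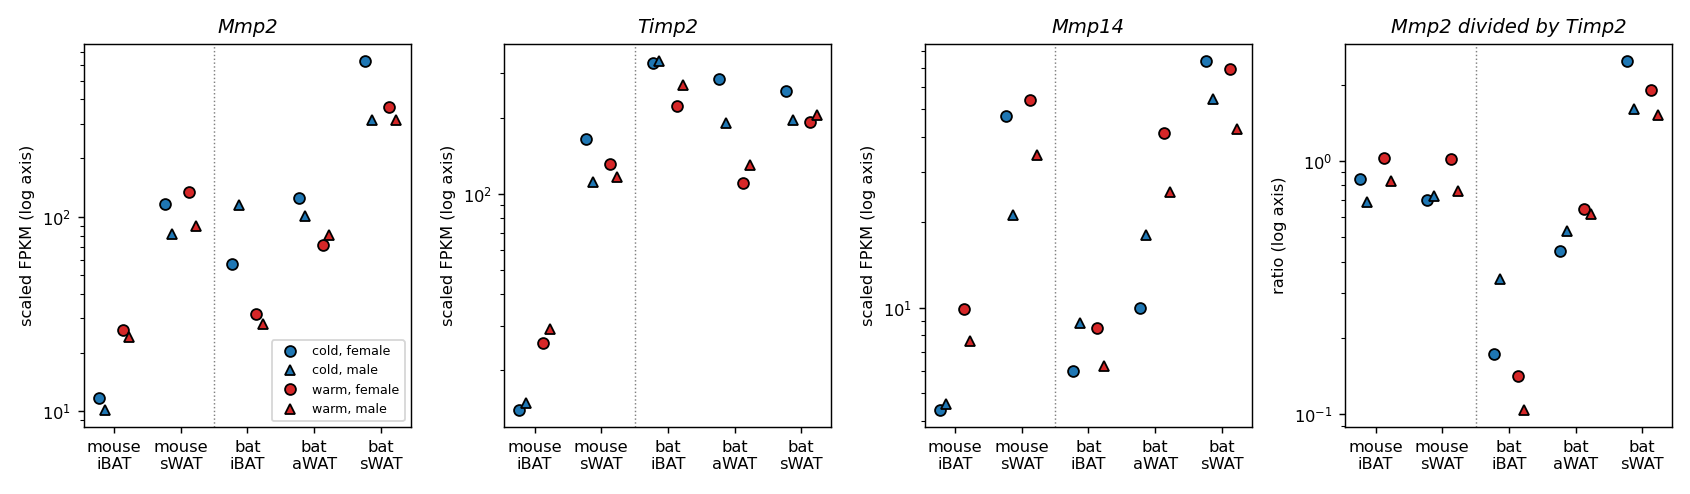
Scaled FPKM of Mmp2, Timp2 and Mmp14 and the ratio of Mmp2 to Timp2 in each library (log axes; circles female, triangles male; blue cold, red warm), by depot with mouse left of the dotted line. Scaling was done within each species. The ratio lay between 0.685 and 1.02 in all 8 mouse libraries, and in bats it was 0.104 to 0.342 in iBAT, 0.442 to 0.646 in aWAT and 1.52 to 2.47 in sWAT.

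Other inhibitors were lower in bat iBAT, except Timp4, which was at 23.9 to 35.2 scaled FPKM in iBAT and 28.9 to 51.1 in sWAT and did not pass. Timp3, which binds to the matrix itself and also blocks Adam17, had 46.9 and 51.6 scaled FPKM in cold iBAT and 88.3 and 134 in warm iBAT, against 246 and 374 in cold sWAT and 350.5 and 441 in warm sWAT (-2.22 ± 0.27, adjusted p = 0.00013). Timp1 had 10.3 and 10.1 scaled FPKM in cold iBAT and 6.54 and 8.46 in warm iBAT, against 61.8 and 83.4 in cold sWAT and 37.3 and 57.8 in warm sWAT (-2.60 ± 0.20, adjusted p = 1.06e-05). No iBAT library of either gene reached the lowest sWAT library. Timp3 shares exon bases with Syn3 on the other strand, and whether counting used the strand is not given, so its reads are uncertain to that extent.

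The 3 bat members higher in iBAT than in sWAT were Adamtsl5, Adamts4 and Adam17. Adamtsl5, a secreted ADAMTS-like protein with no protease domain that associates with fibrillin microfibrils, had 60.5 and 47.8 scaled FPKM in cold iBAT and 42 and 51.1 in warm iBAT, against 8.35 and 7.16 in cold sWAT and 5.72 and 8.9 in warm sWAT (2.59 ± 0.22, adjusted p = 1.72e-05). Adam17 had 11.6 and 11.4 scaled FPKM in cold iBAT and 10.8 and 10.9 in warm iBAT, against 7.46 and 7.44 in cold sWAT and 7.99 and 8 in warm sWAT (0.48 ± 0.11, adjusted p = 0.00654). Its 4 iBAT libraries all lay above its 4 sWAT libraries, whereas Adam10, at 4.29 to 11.2 scaled FPKM in iBAT and 5.6 to 8.13 in sWAT, overlapped between the depots. Adam17 shares exon bases with Iah1 on the other strand.

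Adamts4, an aggrecanase, had 1.65 and 3.5 scaled FPKM in cold iBAT and 0.848 and 1.15 in warm iBAT, against 0.611 and 0.674 in cold sWAT and 0.616 and 0.446 in warm sWAT. Every iBAT library of Adamts4 lay above every sWAT library, but none in sWAT reached 1 FPKM, so its call is no support. Adamts4 also overlaps exons on the opposite strand, as Timp3 and Adam17 do, so its reads are uncertain in the same way. In mouse, Adamts4 did not pass the filter, with at most 0.924 scaled FPKM in any library.

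Between the species, 16 of the 28 members tested in both were lower in iBAT than in sWAT in mouse and 16 in bat. Lower in both were 12 of the 28, where 10.2% of the 9400 genes tested in both species were. These 12 made up 75% of each list of 16, a share that was not computed over all genes. The 12 were Mmp2, Mmp11, Mmp14, Mmp23, Adam19, Adamts5, Adamts10, Adamts12, Adamts14, Adamts15, Adamtsl1 and Timp1. Of these, Adamts12, Adamts14 and Adamtsl1 passed the mouse filter through sWAT alone, and Adamts14 and Adamtsl1 did not reach 1 FPKM in both bat depots. No count over both species was made for genes that reached 1 FPKM in both depots. The counts of 16 and 12 are therefore no support for a shared difference. Lower in mouse and not called in bat were Adam8, Adam10, Adamtsl4 and Timp2, and lower in bat and not called in mouse were Adam12, Mmp19, Mmp28 and Timp3. The calls of Adam8 and Adamtsl4 in mouse and of Adam12 in bat are no support, since these genes did not reach 1 FPKM in both depots there. None of the 28 was called in opposite directions. Whether a gene's difference was larger in one species was not tested. In bats, fibroblast markers were also lower in iBAT, for 7 of the 9 tested, with sums of 199 to 337 scaled FPKM in iBAT and 2162 to 3344 in sWAT. All 8 macrophage markers tested were lower there too, with sums of 98 to 143 scaled FPKM in iBAT and 244 to 630.2 in sWAT, and the part of neither list was tested.

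**Figure D4:**
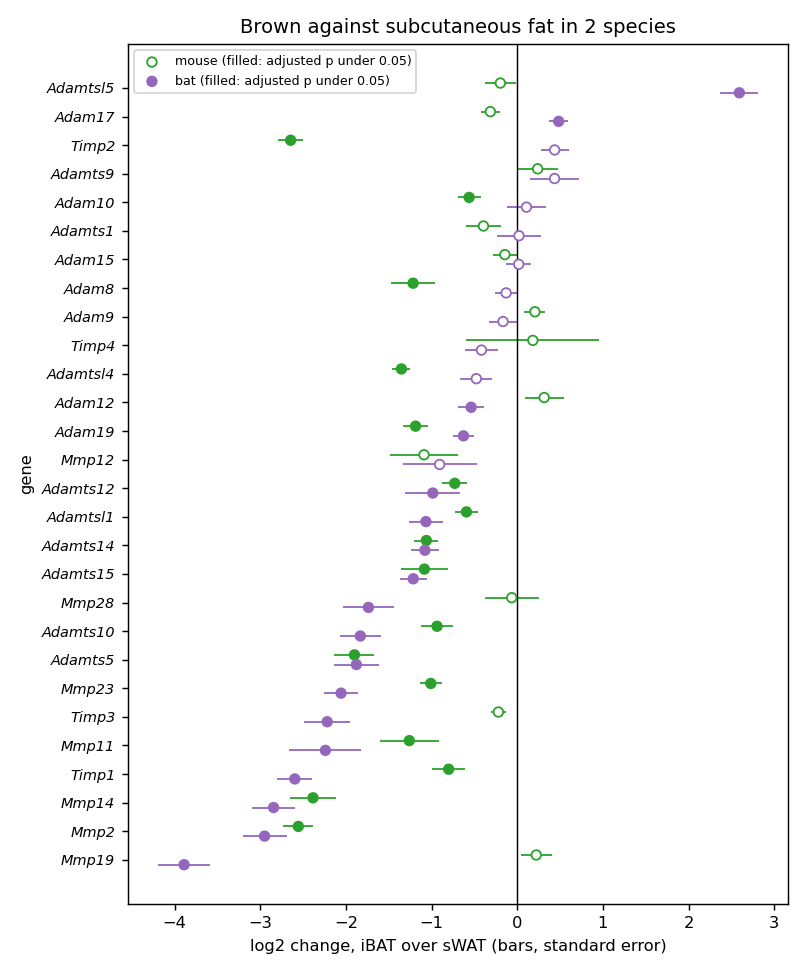
Log2 change between iBAT and sWAT for the 28 members tested in both species (points, with bars of 1 standard error; green mouse, purple bat; filled where the adjusted p was under 0.05), sorted by the bat change. Mmp2 and Mmp14 were near the low end in both species, whereas Timp2 was at -2.65 in mouse and 0.44 in bat, and Mmp19 at 0.22 in mouse and -3.89 in bat.

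Bat aWAT lay between the other depots for several members. Against sWAT, 10 of 37 members were lower in aWAT and 2 higher, where 6.93% of all genes were lower and 7.88% higher, with a median change of -0.33 against 0.00. The lower members included Mmp2 (-2.06 ± 0.26, adjusted p = 0.000924), Mmp19 (-1.58 ± 0.31, adjusted p = 0.00799), Mmp14 (-1.44 ± 0.25, adjusted p = 0.005) and Timp1 (-1.02 ± 0.20, adjusted p = 0.0091). Adamtsl5 was higher (1.21 ± 0.22, adjusted p = 0.0064). The other of the 2 was Mmp16, a membrane-type MMP, with 1.18 and 0.891 scaled FPKM in cold aWAT and 1.51 and 1.76 in warm aWAT, against 0.595 and 0.487 in cold sWAT and 0.521 and 0.416 in warm sWAT. Mmp16 reached 1 FPKM in aWAT alone, so it could pass the filter only through the depot where it was higher, and its call is no support. Over genes that reached 1 FPKM in both depots, 10 of 34 members were lower and 1 higher, where 6.18% of 10406 genes were lower and 7.38% higher. Mesothelial markers, which line the abdominal cavity, summed to 44.5 to 109 scaled FPKM in aWAT and to 2.64 to 12.7 in sWAT, and their part was not tested.

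Against aWAT, iBAT had 11 members lower and 2 higher, where 9.44% of all genes were lower and 10.2% higher, with a median change of -0.33 against 0.00. Adamtsl5 (1.38 ± 0.22, adjusted p = 0.0029) and Timp2 (0.77 ± 0.16, adjusted p = 0.0108) were higher. Mmp19 (-2.31 ± 0.31, adjusted p = 0.0011), Timp1 (-1.58 ± 0.20, adjusted p = 0.000922), Mmp14 (-1.41 ± 0.25, adjusted p = 0.00464) and Timp3 (-1.28 ± 0.27, adjusted p = 0.00964) were among the lower ones. The depot comparisons of the bat share libraries, so their counts are not independent of each other. As deposited, 1668 genes were lower and 746 higher in iBAT than in aWAT, against 1041 and 1124 after scaling, and the members split 14 to 2. Over genes that reached 1 FPKM in both depots, 10 of 30 members were lower and 2 higher, where 8.25% of 10130 genes were lower and 10.7% higher. Mmp16, also called lower in iBAT, reached 1 FPKM in aWAT alone, so its call is no support. Mesothelial markers were lower in iBAT for 5 of 5 tested, macrophage markers for 7 of 8 and fibroblast markers for 4 of 9, and their part was not tested.

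Cold mouse brown fat had 6 of 35 members lower and 2 higher than warm brown fat, where 3.72% of all genes were lower and 6.48% higher, with a median change of -0.09 among members and -0.04 over all genes. Mmp19 had 18.3 and 17.2 scaled FPKM in cold iBAT, against 6.47 and 6.18 in warm iBAT (1.35 ± 0.25, adjusted p = 0.0267). Adam17 had 13.1 and 12.7 scaled FPKM in cold iBAT, against 8.11 and 6.45 in warm iBAT (0.75 ± 0.16, adjusted p = 0.0356). For both genes the cold pair lay close together and above the warm pair. Tmem198b, which overlaps Mmp19, had 2.56 and 2.58 scaled FPKM in cold iBAT, against 3.88 and 4.18 in warm iBAT.

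Lower in cold mouse iBAT were Mmp2 (-1.13 ± 0.25, adjusted p = 0.0389) and Timp2 (-0.88 ± 0.21, adjusted p = 0.0462), whose values are given above, and Timp3, with 23.5 and 24 scaled FPKM in cold iBAT, against 36.3 and 39.1 in warm iBAT (-0.64 ± 0.12, adjusted p = 0.0289). Mmp11, a stromelysin of stromal cells, had 1.09 and 0.928 scaled FPKM in cold iBAT, against 7.35 and 7.6 in warm iBAT (-2.08 ± 0.49, adjusted p = 0.0471). It shares exon bases with Chchd10 on the other strand, so its reads are uncertain. Adamts2 had 1.42 and 1.73 scaled FPKM in cold iBAT, against 5.52 and 5.44 in warm iBAT (-1.34 ± 0.13, adjusted p = 0.00514). Adam11, an ADAM without the zinc-binding motif that is known from neurons, had 1.35 and 0.536 scaled FPKM in cold iBAT, against 6.29 and 3.88 in warm iBAT (-1.65 ± 0.35, adjusted p = 0.0361). It reached 1 FPKM in 5 of the 8 mouse libraries and passed the filter through the warm, where it was higher, so its call is no support.

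None of these groups overlapped, yet the calls rested on all 4 iBAT libraries. Leaving out any 1 of them, with the lone library of the group then assumed to vary like the others, ended every call except that of Adamts2 without the cold female, and raised the adjusted p to at most 0.0643 for Adamts2 and 0.266 for Adam17. The sums of fibroblast markers given above were also lower in cold iBAT, with 2 of 9 called, and muscle markers were low in the cold female alone. Their part was not tested. As deposited, 1202 genes were lower and 304 higher in cold iBAT, against 398 and 693 after scaling.

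Cold mouse sWAT had 2 members higher and 1 lower of 35 than warm sWAT, where 11.1% of all genes were higher and 6.61% lower, so the members were called no more often than all genes. The median was 0.00 among members and 0.00 over all genes. Adam12, which is known from regenerating muscle and cuts insulin-like growth factor binding proteins, had 6.53 and 13.6 scaled FPKM in cold sWAT, against 2.32 and 3.69 in warm sWAT (1.41 ± 0.32, adjusted p = 0.0347). Mmp19 had 11.8 and 15.5 scaled FPKM in cold sWAT, against 4.37 and 7.94 in warm sWAT (1.07 ± 0.25, adjusted p = 0.0376). Mmp25 had 0.603 and 0.0452 scaled FPKM in cold sWAT, against 1.36 and 1.44 in warm sWAT (-0.89 ± 0.23, adjusted p = 0.0455). It reached 1 FPKM in the 2 warm sWAT libraries alone, so it passed the filter only through the group where it was higher, and its call is no support.

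Of the 4 sWAT libraries, the cold male was the highest for Adam12 and the lowest for Mmp25. It held muscle markers and low lymphocyte markers, whose part was not tested. Without it 0 members were called, without the warm female 0, without the warm male 2 and without the cold female 11. With only the 4 sWAT libraries in the fit no member was called. As deposited, 2867 genes were lower and 755 higher in cold sWAT, against 707 and 1186 after scaling, and quantile normalization gave 1283 lower and 1203 higher, with 3 members in each direction.

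Cold bat aWAT had 4 members higher and 3 lower of 37 than warm aWAT, where 9.6% of all genes were higher and 4.56% lower, with a median of -0.34 among members and -0.03 over all genes. Adamtsl5 had 47.5 and 25 scaled FPKM in cold aWAT, against 8.04 and 11.8 in warm aWAT (1.72 ± 0.32, adjusted p = 0.00754), so the cold female lay within the range of bat iBAT. Ucp1 had 7777 and 2711 scaled FPKM in cold aWAT and 2.82 and 2.48 in warm aWAT, 12075 and 8368 in cold iBAT and 2936 and 2783 in warm iBAT, and 0.784 and 1.11 in cold sWAT and 0.384 and 0.58 in warm sWAT. Adamtsl5 was thus high in the groups with high Ucp1 and low in the groups with low Ucp1, and whether they are linked was not tested. In mouse it stayed between 1.5 and 3.13 scaled FPKM in all 8 libraries.

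Timp2 rose in cold aWAT, with 284 and 190.5 scaled FPKM against 111 and 130.4 in warm aWAT (0.95 ± 0.23, adjusted p = 0.0254). Adam12 had 1.29 and 2.29 scaled FPKM in cold aWAT, against 0.647 and 0.456 in warm aWAT (0.83 ± 0.21, adjusted p = 0.0308). Adamts4 had 1.43 and 2.72 scaled FPKM in cold aWAT, against 0.29 and 0.259 in warm aWAT (1.24 ± 0.28, adjusted p = 0.0185). The Adamts4 call carries the uncertainty of overlapping exons named above. Adam12 and Adamts4 each reached 1 FPKM in 5 of the 12 bat libraries and could not have passed the filter on warm libraries alone. Their cold calls are therefore no support. For Timp2 and Adam12 both cold libraries lay above both warm ones.

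Mmp28, known as epilysin, had 9.68 and 7.77 scaled FPKM in cold aWAT, against 27.3 and 46.3 in warm aWAT (-1.92 ± 0.42, adjusted p = 0.0156). Adamts13, the protease that trims von Willebrand factor in plasma, had 3.38 and 2.64 scaled FPKM in cold aWAT, against 15.3 and 7.88 in warm aWAT (-1.59 ± 0.30, adjusted p = 0.00889). Mmp14 had 9.98 and 18.1 scaled FPKM in cold aWAT, against 41.3 and 25.6 in warm aWAT (-1.21 ± 0.36, adjusted p = 0.0486). All 3 were lower in both cold libraries than in either warm one. Mmp28 shares exon bases with 1700020L24Rik, which had 0.28 and 0.245 scaled FPKM in cold aWAT, against 1.09 and 1.44 in warm aWAT. Fibroblast marker sums were 414 and 774 scaled FPKM in cold aWAT, against 781 and 1485 in warm aWAT, and mesothelial sums were 44.5 and 79.7 in cold aWAT, against 66.1 and 109 in warm aWAT. Endothelial sums were 96.5 and 122 scaled FPKM in cold aWAT, against 183 and 163 in warm aWAT, with Cldn5 and Tek called lower, and nerve and Schwann cell sums were 32.2 and 44.2, against 94.1 and 106 in warm aWAT, with S100b called lower. The part of these cells was not tested. Each of the 7 calls was lost without at least 1 of the 4 aWAT libraries, most often the warm female, without which 2 members were called, and none was called with only the 4 aWAT libraries in the fit. The Mmp14 call was also lost with sex as a block, with a pseudocount of 0.1 and with no filter. As deposited, 735 genes were lower and 955 higher, against 503 and 1058 after scaling, and 7 members were lower and 3 higher. Quantile normalization gave 811 genes lower and 1025 higher, with 6 members lower and 3 higher.

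**Figure D5:**
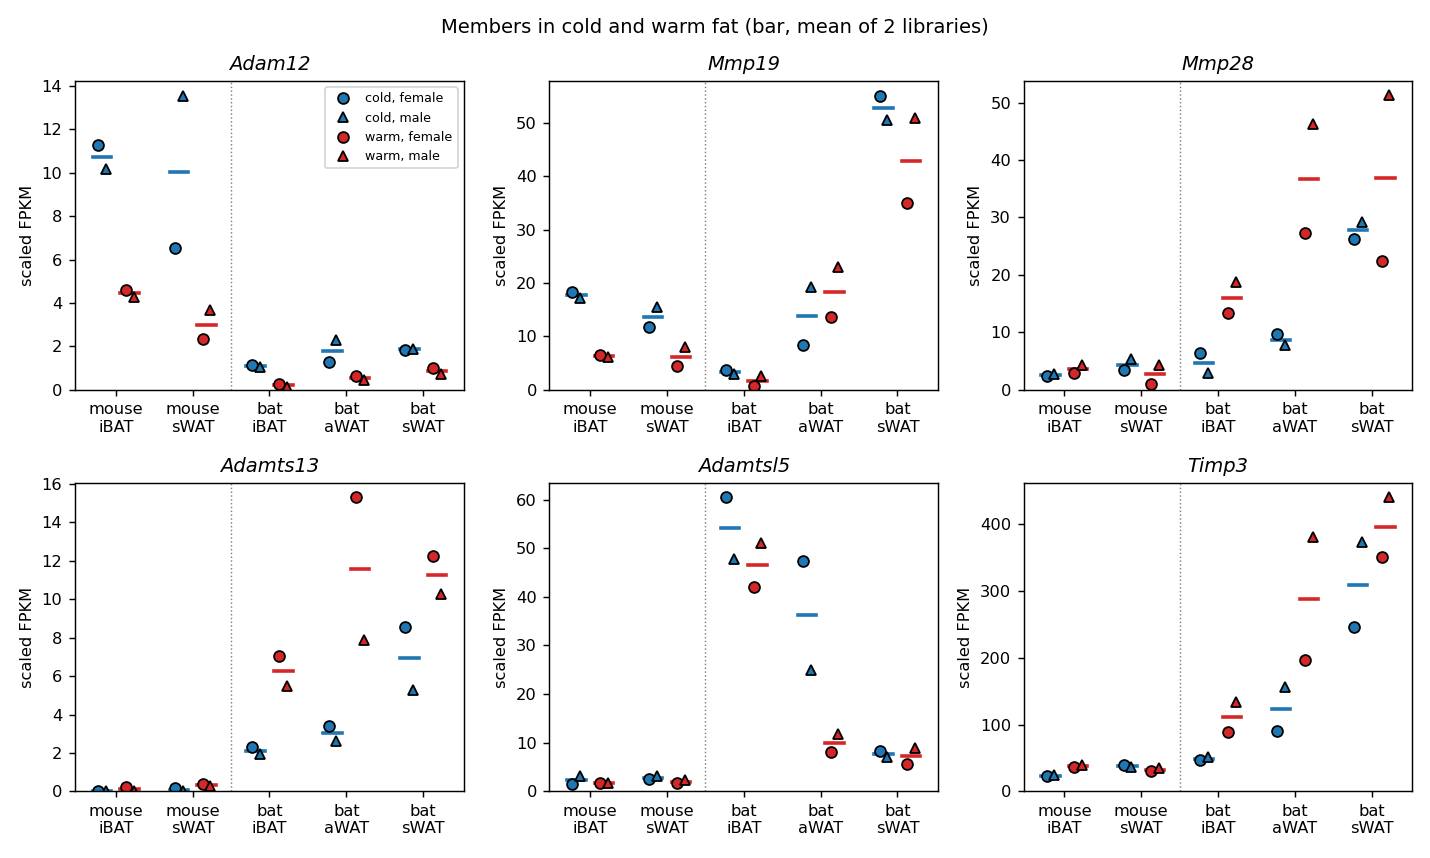
Scaled FPKM of 6 members in cold (blue) and warm (red) fat by depot, with mouse left of the dotted line (circles female, triangles male, bars mean of the 2 libraries). Scaling was done within each species. Adam12 was higher in both cold libraries than in both warm ones in all 5 depots, Mmp28 and Adamts13 were lower in cold bat iBAT and aWAT, and Adamtsl5 was high in bat iBAT and in cold aWAT.

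Cold bat iBAT and cold bat sWAT gave no member calls. In iBAT 0 of 37 members passed in limma, where 1.62% of all genes were higher and 0.608% lower, and 8 members had an unadjusted p under 0.05. These were Mmp2 (1.41 ± 0.36, adjusted p = 0.0736), Adam12 (0.80 ± 0.21, adjusted p = 0.0789), Adamts4, Adam9, Adamts7, Timp3, Adamts13 (-1.22 ± 0.30, adjusted p = 0.0672) and Mmp28 (-1.66 ± 0.42, adjusted p = 0.0695). Mmp28 had 6.32 and 2.91 scaled FPKM in cold iBAT, against 13.4 and 18.7 in warm iBAT, and Adamts13 had 2.3 and 1.93 against 7.06 and 5.47. Their cold and warm libraries did not overlap in iBAT either. The gene sharing exon bases with Mmp28, 1700020L24Rik, had 0.0957 and 0 scaled FPKM in cold iBAT, against 3.09 and 2.66 in warm iBAT. As deposited, 108 genes were lower and 135 higher in cold iBAT, and with quantile normalization 56 and 90, against 67 and 179 after scaling. In sWAT 0 members passed, where 0.98% of all genes were higher and 0.0998% lower, and 4 had an unadjusted p under 0.05, Adamtsl4, Adam12, Adam8 and Adam19. The share of all genes at an unadjusted p under 0.05 was not computed, so the member counts of 8 and 4 are no result. Muscle markers there summed to 249 and 473 scaled FPKM in cold sWAT, against 10.3 and 2.18 in warm sWAT.

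Over all depots of a species at once, an average added after the data were seen, 3 members were higher and 4 lower in cold mice, where 15.8% of all genes were higher and 10.2% lower. The median was -0.17 among members and -0.05 over all genes. The called members were Adam12 (1.26 ± 0.23, adjusted p = 0.0122), Mmp19 (1.21 ± 0.18, adjusted p = 0.00698) and Adam17 (0.38 ± 0.11, adjusted p = 0.0489), and on the lower side Adamts2 (-0.61 ± 0.09, adjusted p = 0.00707), Mmp2, Adam11 (-1.46 ± 0.25, adjusted p = 0.01) and Mmp11 (-1.68 ± 0.35, adjusted p = 0.018). In cold bats 5 members were higher and 4 lower, where 12.6% of all genes were higher and 6.96% lower, with a median of 0.01 among members and 0.02 over all genes. Adam12 (0.75 ± 0.12, adjusted p = 0.00422), Mmp2 (0.79 ± 0.21, adjusted p = 0.0281), Adamts4, Adamtsl5 and Timp2 were higher. Mmp28 (-1.29 ± 0.24, adjusted p = 0.00693), Adamts13 (-1.15 ± 0.17, adjusted p = 0.00294), Timp3 (-0.90 ± 0.22, adjusted p = 0.0193) and Adamts5 (-0.80 ± 0.22, adjusted p = 0.0287) were lower. Adam11, Adamts2 and Mmp19 in mouse and Adam12, Adamts4, Adamts13 and Mmp28 in bat kept their calls without any 1 library and under 5 alternative settings. Of these, mouse Adam11 and bat Adam12 and Adamts4 each reached 1 FPKM in 5 libraries of the species. The filter let them in through the temperature where they were higher, so their cold calls are no support. Mmp28, Adamts4 and Mmp19 share exon bases with a gene on the other strand, so their reads are uncertain to that extent. The call of Adam17 was lost without any 1 of the 8 mouse libraries, and its change was -0.02 with FPKM as deposited. Mouse Mmp11 and Adam12 lost theirs without some iBAT libraries, with adjusted p of at most 0.0673 and 0.0512. As deposited, 4017 genes were lower and 836 higher in cold mice, against 1089 and 1685 after scaling, with 14 members lower and 2 higher. In cold bats 1002 were lower and 1196 higher as deposited, and 1053 and 1093 with quantile normalization, against 767 and 1394 after scaling.

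Mmp2 was called in opposite directions by these averages, lower in cold mice (-0.65 ± 0.17, adjusted p = 0.0385) and higher in cold bats, and a difference between species was not tested. Without 1 library the adjusted p of Mmp2 reached 0.123 in mouse and 0.0729 in bat. Adam12 was the single member whose cold libraries lay above the warm ones in every depot of both species, 1 of the 28 tested in both, where 1.93% of the 9400 genes tested in both did so. It was at 11.3 and 10.2 scaled FPKM in cold mouse iBAT, against 4.6 and 4.29 in warm iBAT. In bats it was at 1.13 and 1.05 scaled FPKM in cold iBAT, against 0.277 and 0.129 in warm iBAT, and at 1.82 and 1.89 in cold sWAT, against 1.01 and 0.711 in warm sWAT. As said above, it passed the bat filter through the cold, where it was higher, so this pattern is a description and no support. None of the 28 had the reverse pattern, which 100 of the 9400 genes had. Timp1 was higher in every cold library than in the warm ones in 4 of 5 depots, the exception being bat aWAT, but passed in none. Adam8, Adamts5 and Adamts13 were lower in the cold in 4 of 5 depots in the same sense. The share of all genes with such a pattern in 4 of 5 depots was not computed, so these counts are no result about the members.

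No difference between depots in the cold response passed for any member. For iBAT minus sWAT in mouse, 0 of 35 members passed in limma, where 0.00936% of all genes were higher and 0.00936% lower, and 8 had an unadjusted p under 0.05. The nearest was Adamts2, whose cold change was -1.34 in iBAT and which had 7.5 and 8.05 scaled FPKM in cold sWAT, against 6.92 and 7.26 in warm sWAT (difference -1.45 ± 0.18, adjusted p = 0.0702). Of all genes 1 was higher and 1 lower there, against 4 and 6 as deposited and 3 and 10 with quantile normalization. The share of all genes at an unadjusted p under 0.05 was not computed, so member counts at that limit, here and for the bat below, are no result. In the bat, 0 of 37 passed for iBAT minus sWAT, where 0.0454% of all genes were higher and 0.49% lower, with 3 at an unadjusted p under 0.05. For aWAT minus sWAT it was also 0, where 2.47% were higher and 1.19% lower, with 9 at an unadjusted p under 0.05, the nearest being Adamtsl4 (-1.49 ± 0.37, adjusted p = 0.0595). For iBAT minus aWAT 0 passed too, where 0% were higher and 0.136% lower, with 5 at an unadjusted p under 0.05. A cold call in one depot and not in another was therefore not shown to be a difference between depots.

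Genes around the proteases were counted from 5 lists, against the same background shares of all genes. In mouse iBAT against sWAT 25.4% of all genes were lower and 26.5% higher. In mouse iBAT against sWAT, 9 of 10 proteoglycans and other substrates were lower, such as Dcn (decorin, -1.84 ± 0.14) and Thbs2 (thrombospondin 2, -1.99 ± 0.15). Of 11 genes of the plasminogen system and other serine proteases, 8 were lower, such as Fap (-1.41 ± 0.18), and 1 higher. Of 12 partners and regulators, 7 were lower, such as the membrane-anchored MMP inhibitor Reck (-1.30 ± 0.18), and 1 higher, the proprotein convertase Furin (1.07 ± 0.17), which activates Mmp14. Of 12 shed ligands and receptors, 7 were lower and 1 higher, and both tested procollagen C-proteinase genes, Bmp1 and Pcolce, were lower. In bat iBAT against sWAT the same lists had 5 of 8, 8 of 11, 4 of 10, 9 of 10 and 2 of 2 lower, with 1 partner higher and none higher in the others. Of all genes, 23.4% were lower and 22.9% higher there.

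The same lists were counted in the cold. Of all genes, 6.48% were higher and 3.72% lower in cold mouse iBAT, and 11.1% and 6.61% in cold mouse sWAT. In cold bat aWAT 9.6% were higher and 4.56% lower. In cold mouse iBAT, Furin had 37.3 and 29.8 scaled FPKM, against 12.7 and 14 in warm iBAT (1.26 ± 0.24, adjusted p = 0.0272). It was 1 of the 12 partners higher, with 2 lower, Rhbdf2 (-0.83 ± 0.17), which brings Adam17 to the surface, and the convertase Pcsk5 (-1.71 ± 0.23). Among the 10 substrates Dcn and Thbs2 were lower, and no gene of the other 3 lists passed. In cold mouse sWAT, Pcolce (1.24 ± 0.27) and Bmp1 (0.54 ± 0.14), which process the other end of procollagen, were both higher, and Tnf (-1.44 ± 0.33), the cytokine that Adam17 releases, was lower with Il6ra and Tnfrsf1b. Hspg2 was higher there, and Fmod and Rhbdf2 were lower. In cold bat aWAT 6 genes of these lists, whose sizes in bat are given above, were lower and none was higher. Among the 6 were the secreted protease Htra1 (-1.79 ± 0.25) and the basement membrane proteoglycan Hspg2 (-1.37 ± 0.33). In cold bat iBAT and sWAT none of them passed.

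Between the sexes no member passed in either species. In limma, with sex beside the groups, 0 of 35 mouse members were called between male and female libraries, where 0% of all genes were higher and 0% lower, and 6 had an unadjusted p under 0.05. In the bat 0 of 37 were called, where 0.00907% were higher and 0% lower, and 9 had an unadjusted p under 0.05. The shares of all genes given here are at the adjusted limit. None was computed for an unadjusted p under 0.05, so the member counts of 6 and 9 are no result. As deposited 4 bat genes were higher and 4 lower, and with quantile normalization 6 and 5, against 1 and 0 after scaling. Mmp11 in the bat came nearest (-0.94 ± 0.17, adjusted p = 0.111). Its male libraries had 1.11, 2.23 and 8.65 scaled FPKM in cold iBAT, aWAT and sWAT and 2.33, 3.6 and 11.6 in the warm, while its female libraries had 2.5, 2.32 and 23.1 in the cold and 5.69, 10.9 and 27.1 in the warm. The male library was the lower of the pair in all 6 bat groups.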

How the data were processed

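Values are FPKM, 1 column per library, as deposited by the authors. CASAVA 1.8 is named in the submitters' processing notes; aligner, counter, genome builds, strandedness and how bat reads were assigned to mouse gene identifiers: not given in the sources used here. Symbols came from a gene name table, which matched 14723 of 14871 identifiers, and exon overlaps and coding sequences from GENCODE M21. All libraries were used.

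FPKM was divided by median-ratio size factors within species, and log2(value + 1) was tested with limma 3.58.1 in R 4.3.3, as group means over all libraries of a species (8 mouse, 12 bat) with a trended prior, two-sided, with Benjamini-Hochberg adjustment over genes with at least 1 FPKM in 2 libraries. The tests were tested on simulated data. FPKM keeps no read totals, so precision is known only from the spread between 2 libraries per group. The alternatives were FPKM as deposited, quantile normalization, a pseudocount of 0.1, no filter, only the groups compared, sex or the shared title prefix as a block, and leaving out each library.

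The members, gene lists and markers were chosen with earlier results of these data known. Every member could be named. Per-library values were given for the TIMPs, for 13 other listed genes (of these Mmp3 was not analysed here) and for the largest changes, and up to 3 called genes per comparison were named from each related list.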

Additional observations from a re-analysis of the deposited data

How the results depend on the processing

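Of 657 checks of a called member under another setting, 610 kept the call, 46 lost it and 1 turned its sign, that of Adam17 over both mouse depots, at -0.0185 as deposited. Of 772 checks without 1 library, 608 kept the call and 164 lost it. As deposited, all genes shifted by a median of -0.52 between mouse depots, -0.30 and -0.37 for cold in mouse iBAT and sWAT, -0.36 for cold over both mouse depots, -0.11 between mouse sexes, -0.10 to -0.17 in 4 bat cold or depot comparisons, and -0.17 and -0.19 for the bat differences of iBAT minus sWAT and aWAT minus sWAT. Counts of called members moved as follows. Mouse iBAT cold gave 2 with quantile normalization and 4 with no filter, against 8. Mouse sWAT cold gave 6 as deposited, 6 with quantile normalization, 0 with only the groups compared and 5 with the sex block, against 3. Bat iBAT cold gave 1 as deposited, 1 with a pseudocount of 0.1 and 2 with the sex block, against 0. Bat aWAT cold gave 0 with only the groups compared, against 7. The bat difference of aWAT minus sWAT gave 1 as deposited, against 0, and the average over both mouse depots 16, against 7. Leaving out 1 library gave 0 to 1 in mouse iBAT cold, 0 to 11 in mouse sWAT cold, 0 to 1 in bat sWAT cold and 2 to 5 in bat aWAT cold. It gave 0 to 5 for the mouse difference between depots, 0 to 1 for the bat iBAT minus sWAT and aWAT minus sWAT differences, and 3 to 12 and 4 to 9 for the averages over mouse and bat depots. Depot counts stayed within 1.5 times of the reported value in every setting, 18 to 24 in mouse and 19 to 23, 8 to 12 and 9 to 13 in bat without 1 library. Blocking on the title prefix, as if it marked 1 animal, gave 22 in mouse and 24, 18 and 17 in bat. The labels number no replicates, so these blocks, on sex and on the title prefix, were the pairings that could be fitted. The causes of these shifts were not tested. With 2 libraries per group and unknown read totals, small changes and genes near 1 FPKM could not be resolved.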
